A study of Mus musculus with 6 samples.

Results

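The renin-angiotensin system genes were chosen by name, as a set of 8: Ren1, Agt, Agtr1a, Agtr2, Ace, Enpep, Mme and Atp6ap2. Of these, 7 had a row in the expression table of 13965 rows, each row holding 1 Ensembl identifier, and all 7 passed the filter on low values (at least 1 CPM in at least 3 libraries), as did 13766 rows in all. CPM scales the reads of each library to a common total. Agt, which encodes the precursor angiotensinogen, was not analysed here.

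Libraries were made from whole embryonic mouse kidneys, day 16. There are 3 control libraries, labelled WT, miR-17~92 flx/+, and 3 libraries from mutants, whose genotype is Six2-TGC with miR-17~92 flx/flx. A litter contributed 1 library of either genotype, 3 litters in all, and genotypes were compared within litters. In mutant kidneys the Six2-TGC transgene expresses Cre recombinase in nephron progenitors, so that the floxed miR-17~92 microRNA cluster is lost there and in the tubule cells and podocytes that descend from them. Control kidneys carried 1 floxed copy of the cluster and, by their label, no transgene, so the transgene and the loss of the cluster cannot be told apart. The labels give neither strain nor sex, and do not say whether a library held the kidneys of 1 embryo or of several.

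Renin, an aspartic protease released by juxtaglomerular cells, cuts angiotensinogen to angiotensin I, and angiotensin-converting enzyme trims that to angiotensin II, which acts through the type 1 and type 2 receptors. Aminopeptidase A (Enpep) and neprilysin (Mme) cut these peptides further. In the fetal kidney renin is made along growing arteries, by cells of the stromal lineage that lie outside the Six2 lineage, and mutations that disable the system disturb the development of proximal tubules.

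Library totals, recovered from the size of 1 read, lay between 43804667 and 54913325 reads, and the 7 genes had 338 to 23568 reads per library. Control library 1 stood apart by its sex-linked transcripts. Xist was at 624 CPM there and at 0.0809 to 0.255 CPM in the other 5 libraries, while Ddx3y, a Y-linked gene, was detected in all 6, at 53.8 CPM in control library 1 and at 82.7 to 125 CPM elsewhere. Agtr2 and Atp6ap2 are X-linked, so values without litter 1 are given for each gene below. The row of Mir17hg, the host transcript of the deleted cluster, was called higher in mutant kidneys (control 31.2 ± 7.18 CPM, mutant 46.0 ± 7.01 CPM, SD, n = 3; log2 difference 0.57, adjusted p = 0.0292 by limma paired by litter, 0.0228 with a length and GC correction, 0.222 unpaired). It was higher in 3 of 3 litters, without overlap between the groups. The row joins 7 identifiers and does not separate the floxed stretch from the rest of the transcript, so it does not check the deletion.

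The mature microRNAs of the cluster are shown because their seeds, bases 2 to 8 in capitals, define the sites searched in the 7 genes. They are read from the plus strand of chromosome 14 (RefSeq, GRCm38.p6), from chr14:115043684-115043706 for miR-17-5p to chr14:115044476-115044496 for miR-92a-3p. miR-17-5p and miR-20a-5p share a seed, and so do miR-19a-3p and miR-19b-3p.
mmu-miR-17-5p: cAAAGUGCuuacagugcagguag
mmu-miR-20a-5p: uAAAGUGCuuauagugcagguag
mmu-miR-18a-5p: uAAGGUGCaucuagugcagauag
mmu-miR-19a-3p: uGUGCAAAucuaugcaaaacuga
mmu-miR-19b-3p: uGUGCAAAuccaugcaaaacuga
mmu-miR-92a-3p: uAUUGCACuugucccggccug

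None of the 7 genes held a 7-base match to any of these seeds in its longest annotated 3′ UTR (GENCODE M21, GRCm38). The letters searched on the sense strand were GCACTTT for miR-17-5p with miR-20a-5p, GCACCTT for miR-18a-5p, TTTGCAC for the miR-19 pair and GTGCAAT for miR-92a-3p. Of 13378 UTRs of tested genes, 33.7% held at least 1 match. The UTRs of the 7 genes ran from 187 bases in Ren1 to 5698 bases in Mme. Among UTRs of like length (from 0.8 times the gene's own to the inverse of that), 79.9% of 593 held a match for Mme, 29.8% of 2103 for Enpep, 25% of 1947 for Ace and 4.18% of 646 for Ren1. The result says that these letters are not in the windows searched.

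A group of 3 peptidase genes, Ace, Enpep and Mme, rose in mutant kidneys when litters were paired. The other 4 genes, Ren1, both receptor genes and Atp6ap2, did not pass. Calls were made with limma on log2(CPM + 0.5) at an adjusted p below 0.05 (Benjamini-Hochberg over 13766 rows). Over all rows 11.4% were called, 7.93% of rows higher and 3.51% lower. Without pairing, limma called 0 of the 7 genes and 0.559% of all rows, and 2 of the 7 had an unadjusted p below 0.05. Without litter 1, 0 were called against 2.81% of all rows. The RNA came from whole kidneys, so more cells of a type and more RNA per cell cannot be told apart.

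**Figure D1:**
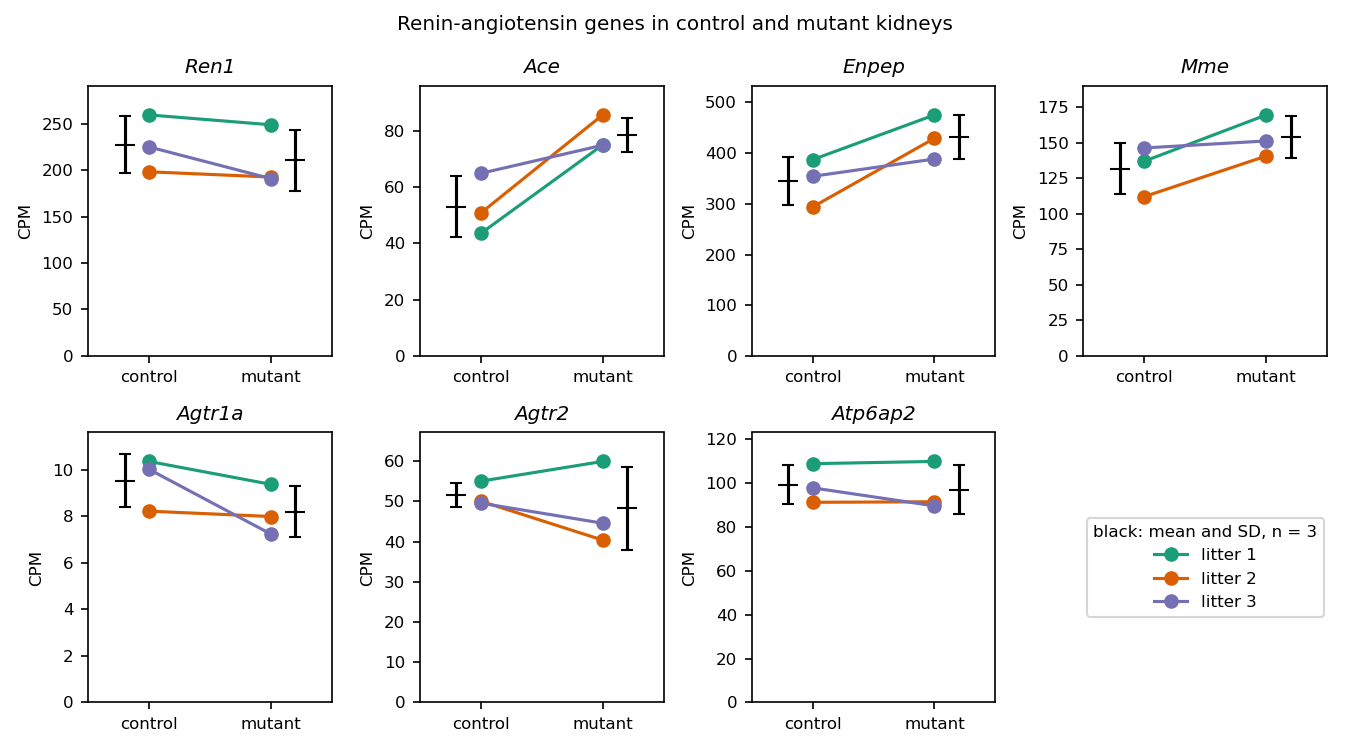
CPM of each gene (y axis, from 0) in control and mutant kidneys, with lines joining the libraries of a litter and black bars for the mean and SD of 3 libraries. Ace, Enpep and Mme rise along all 3 lines, from means of 53.1, 345 and 132 CPM to 78.6, 431 and 154 CPM, and the lines of Ren1 and Agtr1a slope down in each litter, without a call.

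Ren1 encodes renin, the enzyme that starts the cascade (chr1:133350510-133360325, plus strand, GENCODE M21 on GRCm38, as for the positions below). It stood at 259, 198 and 225 CPM in the control libraries of litters 1, 2 and 3 and at 249, 193 and 191 CPM in the mutant libraries. The mutant library was the lower one in each litter, with log2 differences of -0.06, -0.04 and -0.24, and the groups overlapped. Control kidneys averaged 228 ± 30.7 CPM and mutant kidneys 211 ± 33.0 CPM (SD, n = 3). The log2 difference was -0.11 (SE 0.05, 95% interval -0.23 to -0.0007), with an unadjusted p of 0.0489 and an adjusted p of 0.169 by limma. The adjusted p was 0.788 unpaired, and 0.331 without litter 1. Some mouse strains carry an additional, near-identical renin gene, and its reads could then be counted in this row.

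Ace encodes angiotensin-converting enzyme, a zinc peptidase of endothelial cells and of the proximal tubule brush border (chr11:105967945-105989964, plus strand). It stood at 43.6, 50.8 and 64.9 CPM in control and at 75, 85.7 and 74.9 CPM in mutant libraries, so that each mutant library lay above each control library. The mean rose from 53.1 ± 10.9 CPM to 78.6 ± 6.19 CPM (SD, n = 3), with a log2 difference of 0.58 (SE 0.10, 95% interval 0.34 to 0.81) and an adjusted p of 0.0134 by limma. This is the largest change among the 7 genes, and corresponds to 1.49-fold (1.27 to 1.76). Within litters the differences were 0.78, 0.75 and 0.21. Unpaired, the adjusted p was 0.110, and without litter 1 it was 0.0547 (log2 difference 0.48). The exact two-sided permutation p was 0.1, the smallest that 3 against 3 libraries allow.

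Enpep encodes aminopeptidase A, which turns angiotensin II into angiotensin III and sits on the brush border and on podocytes (chr3:129269175-129332720, minus strand). Its control libraries were at 387, 294 and 354 CPM and its mutant libraries at 475, 429 and 388 CPM. The groups did not overlap, though the lowest mutant and the highest control library differed by less than 2 CPM. The mean rose from 345 ± 47.4 CPM to 431 ± 43.5 CPM (SD, n = 3), and the log2 difference of 0.33 (SE 0.07, 95% interval 0.17 to 0.48) had an adjusted p of 0.0237 by limma. Within litters it was 0.30, 0.55 and 0.13. The adjusted p was 0.283 unpaired and 0.0765 without litter 1 (log2 difference 0.34), and without litter 2 the log2 difference was 0.21, with an adjusted p of 0.0124.

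Mme encodes neprilysin, a zinc peptidase of the brush border and of podocytes that degrades angiotensins, natriuretic peptides and kinins (chr3:63241537-63386030, plus strand). It stood at 137, 112 and 146 CPM in control and at 170, 141 and 151 CPM in mutant libraries. The groups overlapped, while the mutant library was the higher one in each litter. The mean rose from 132 ± 17.7 CPM to 154 ± 14.7 CPM (SD, n = 3). The log2 difference of 0.23 (SE 0.06, 95% interval 0.09 to 0.36) had an adjusted p of 0.0469 by limma, just inside the threshold. Mme was no longer called with median-ratio scaling (adjusted p = 0.0607), with trimmed-mean scaling (0.0594), without litter 1 (0.244), without litter 2 (0.0863) or unpaired (0.495).

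Agtr1a encodes the main type 1 receptor, which carries the vasoconstrictor and sodium-retaining actions of angiotensin II (chr13:30336441-30382867, plus strand). It was scarce, at 10.4, 8.23 and 10.03 CPM in control and 9.38, 7.99 and 7.24 CPM in mutant libraries, from 338 to 496 reads. The mutant library was lower in each litter, with log2 differences of -0.14, -0.04 and -0.44, and the groups overlapped. The log2 difference was -0.21 (SE 0.11, 95% interval -0.46 to 0.04) with an adjusted p of 0.248 by limma, 0.635 unpaired and 0.411 without litter 1. Its near-identical relative Agtr1b was not analysed here, and reads shared by the pair are uncertain.

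Agtr2 encodes the type 2 receptor, which is abundant in fetal mesenchyme and often opposes the type 1 receptor (chrX:21484544-21489164, plus strand). Its control libraries lay close together, at 55.0, 50.1 and 49.6 CPM, and its mutant libraries were spread on both sides of them, at 59.9, 40.4 and 44.6 CPM. The mutant library was higher in litter 1 and lower in the other two. The log2 difference was -0.11 (SE 0.08, 95% interval -0.30 to 0.07) with an adjusted p of 0.394 by limma and 0.816 unpaired. Without litter 1, whose control library held Xist, it was -0.23 with an adjusted p of 0.189.

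Atp6ap2 encodes the prorenin receptor, which is also an accessory protein of the vacuolar proton pump (chrX:12587801-12617049, plus strand). It stood at 109, 91.2 and 97.7 CPM in control and at 110, 91.4 and 89.5 CPM in mutant libraries. Litters 1 and 2 were nearly level, and litter 3 was lower in the mutant. The log2 difference of -0.04 (SE 0.05, 95% interval -0.15 to 0.08) had an adjusted p of 0.669 by limma. In this paired fit the interval ran from 1.11-fold down to 1.05-fold up. Unpaired, the SE was 0.11 and the adjusted p 0.938 by limma. With the length and GC correction described below the sign of the paired difference turned, to 0.03. Without litter 1 the difference was -0.06 (adjusted p = 0.707).

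**Figure D2:**
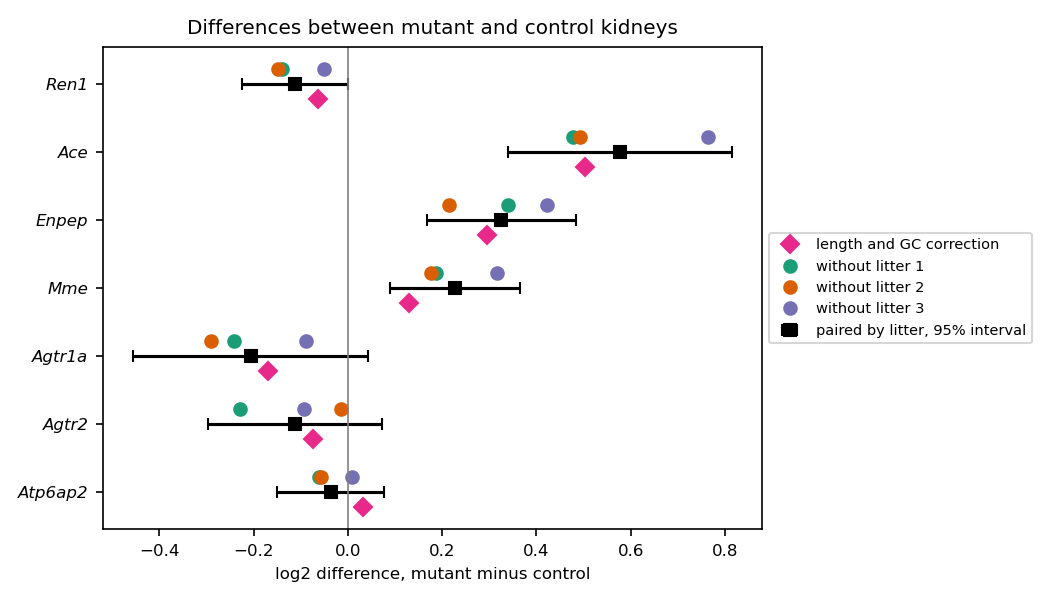
Log2 difference of each gene (x axis, mutant minus control) in the paired fit, as squares with 95% intervals, with diamonds for the length and GC correction and circles for fits that leave out 1 litter. Ace keeps the highest value throughout (0.48 to 0.76), and Mme drops from 0.23 to 0.13 with the correction.

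As an alternative, each library's trend on transcript length and GC content was removed before the fit. The longest transcripts of Mme, Ace and Enpep have 8039, 4906 and 4181 bases, and that of Ren1 1592 bases. With the correction, 2 of the 7 genes were called, both higher, against 6.25% of all rows (3.59% higher). Ace kept a log2 difference of 0.50 (adjusted p = 0.0279 by limma) and Enpep one of 0.30 (0.0492). Mme fell to 0.13 and was not called (0.357). Ren1 went from -0.11 to -0.06 and Agtr1a from -0.21 to -0.17, both still short of the threshold.

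Across the 17 alternative settings, the adjusted p by limma ran from 6.81e-07 to 0.334 for Ace, from 3.64e-05 to 0.674 for Enpep and from 0.000375 to 0.894 for Mme. The lowest of each came without litter 3, where the effect within litters was smallest, and where 3 of the 7 genes and 17.3% of all rows were called. A fit on 2 litters has 1 residual degree of freedom per gene and leans on the spread shared across genes. Of all rows, 11.2% were called with a pseudocount of 0.1, 11.6% with 1, 11% with no filter and 13.8% with a filter of 5 CPM, and 3 of the 7 genes each time. With median-ratio and trimmed-mean scaling it was 10.9% and 10.8% of rows, and without litter 2 it was 10.3%, with 2 of the 7 genes each. Unpaired fits that left out control library 1, 2 or 3 called 0.731%, 0.197% and 0.321% of rows, and those without mutant library 1, 2 or 3 called 0.533%, 0.249% and 0.161%. Among these 6 fits Ace was called once, without control library 3 (adjusted p = 0.0470 by limma), and no other gene of the 7 was called. The directions of Ace, Enpep, Mme, Ren1 and Agtr1a were the same in all 17 settings.

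Read against all rows, the patterns over single libraries were less rare than the calls. Ace and Enpep were 2 genes whose groups did not overlap, with mutant kidneys higher, as in 10.2% of all rows. No gene of the 7 lay lower without overlap, as 7.12% of rows did. Ace, Enpep and Mme were higher in the mutant of 3 of 3 litters, as were 28.3% of rows, and Ren1 and Agtr1a lower in 3 of 3, as were 22.2%.

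Levels of different genes were compared as CPM per kilobase of the longest annotated transcript. In control kidneys Ren1 stood highest, at 143 ± 19.3 CPM per kilobase (SD, n = 3), above 97.2% of 13695 rows with a length. Enpep followed at 82.5 ± 11.3 and Atp6ap2 at 42.7 ± 3.83 CPM per kilobase. Mme (16.4 ± 2.20) and Agtr2 (15.7 ± 0.919) overlapped, Ace stood lower at 10.8 ± 2.21, and Agtr1a was lowest at 4.34 ± 0.523 CPM per kilobase. The other neighbours in this order did not overlap in any control library. In mutant kidneys Ace, at 16.0 ± 1.26 CPM per kilobase, came before Agtr2 (14.7 ± 3.14), within overlapping ranges. The value for Mme depends on the form made, since its longest transcript has a long 3′ UTR and a shorter form would give a higher level. Which form these kidneys make was not tested.

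**Figure D3:**
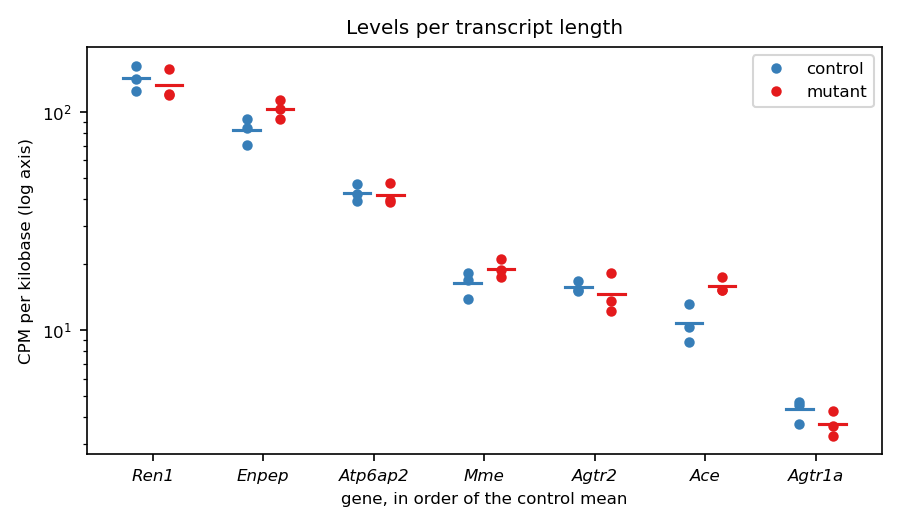
CPM per kilobase (log axis) in control and mutant libraries, 3 points a group with the mean as a line, in the order of the control means. The genes span from 143 CPM per kilobase for Ren1 to 4.34 for Agtr1a in control kidneys. In mutant kidneys the mean of Ace lies above that of Agtr2, while their points overlap.

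The promoters of Ren1, Ace and Enpep are shown to set Ren1, the highest of the 7 per kilobase (Enpep is higher in CPM), beside the pair that rose under the length correction as well. Each is the 250 bases before the RefSeq start (GRCm38.p6), at chr1:133350424-133350673 (plus strand), chr11:105967698-105967947 (plus strand) and chr3:129332750-129332999 (minus strand). Capitals mark TATAAA and GGGCGG, searched on both strands (TTTATA and CCGCCC on the other). In Ace, 2 of the GGGCGG matches overlap.
Ren1: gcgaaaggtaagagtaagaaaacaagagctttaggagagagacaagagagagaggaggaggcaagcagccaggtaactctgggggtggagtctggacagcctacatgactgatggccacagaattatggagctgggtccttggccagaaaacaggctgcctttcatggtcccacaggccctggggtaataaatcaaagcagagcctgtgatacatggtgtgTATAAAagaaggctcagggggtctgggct
Ace: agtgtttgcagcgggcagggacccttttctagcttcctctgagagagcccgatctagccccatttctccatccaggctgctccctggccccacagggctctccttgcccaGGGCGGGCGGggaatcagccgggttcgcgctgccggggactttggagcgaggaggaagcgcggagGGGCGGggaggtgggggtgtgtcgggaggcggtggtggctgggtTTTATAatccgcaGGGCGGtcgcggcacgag
Enpep: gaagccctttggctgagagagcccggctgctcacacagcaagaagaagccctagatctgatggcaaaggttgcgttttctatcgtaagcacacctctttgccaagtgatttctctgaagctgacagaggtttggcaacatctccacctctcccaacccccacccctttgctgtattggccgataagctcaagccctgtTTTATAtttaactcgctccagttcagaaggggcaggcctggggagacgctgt

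All 3 held 1 TATAAA match, as did 12.4% of 32851 promoter windows of that length. It began 29 bases before the start in Ren1, on the sense strand, and 31 and 52 bases before it in Ace and Enpep, on the other strand. Ace also held 4 GGGCGG matches and a GC content of 67.2%, against 0 matches in both Ren1 (51.6%) and Enpep (52.4%). GGGCGG was in 32.7% of windows. Promoters of 6 of the 7 genes were in the table, Ace with 2 starts and Mme with 3. The windows of Mme, Agtr2 and Atp6ap2 and the internal start of Ace held no TATAAA. A match is a string of letters and not a site shown to be used.

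Ace, Enpep and Mme are expressed in proximal tubules, so markers of that cell type were read beside them. For this list and those below, the shares over all tested rows were 7.93% called higher and 3.51% lower. With the length and GC correction 3.59% of rows were called higher. Of 14 proximal tubule genes 5 rose, 0 fell and 9 were not called (11 differences positive, 3 negative), with a median log2 difference of 0.22 against 0.01 over all tested rows. They were the endocytic receptor genes Lrp2 and Cubn, the transcription factor gene Hnf4a, the water channel gene Aqp1, and Keg1. With the length and GC correction 2 of the 14 were called, and unpaired 0. The 14 levels summed to 829 to 955 CPM in control and 990 to 1232 CPM in mutant libraries, with no overlap. Within litters the sum differed by 0.48, 0.46 and 0.05 on the log2 scale, lowest in litter 3 as for Ace, Enpep and Mme. Litter 3 was also the lowest for the summed stromal genes (0.49, 0.23 and 0.06), macrophage genes (0.42, 0.32 and 0.03), podocyte genes (0.05, 0.10 and -0.04) and peptide pathway genes (0.12, 0.14 and -0.03). It was not the lowest in every list. Litter 3 was the highest for the summed renin control genes (0.101, 0.133 and 0.178) and aldosterone and sodium genes (0.148, 0.0865 and 0.154). The part of the proximal tubule shift in the result for the 3 peptidases was not tested.

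Endothelial genes mark another site of Ace. Of 12 measured, 8 had positive and 4 negative differences, 5 rose (Cdh5, Kdr, Flt1, Tie1 and Tek, encoding a junctional cadherin and receptors of vascular growth factors) and 0 fell, with a median of 0.16. With the length and GC correction 4 of the 12 were called, and unpaired 0. The summed level went from 1131 to 1142 CPM in control to 1250 to 1280 CPM in mutant libraries, and its differences within litters were 0.13, 0.16 and 0.15, more even than those of Ace. Podocytes, which carry Enpep and Mme, gave a mixed picture. Of 12 podocyte genes Npnt rose and Nphs1 and Wt1 fell, the median was -0.04, and the sums overlapped (1407 to 1585 CPM in control, 1483 to 1545 CPM in mutant libraries). Their part in the result was not tested either.

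**Figure D4:**
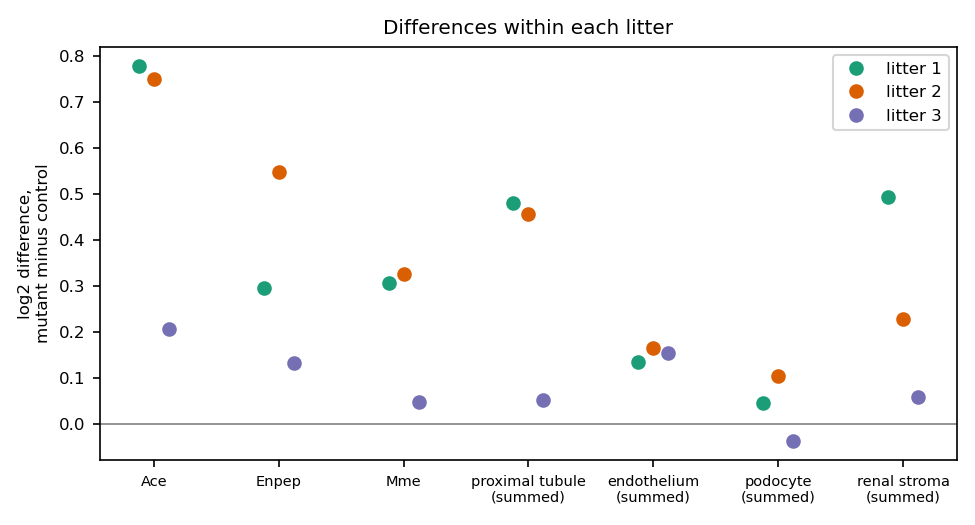
Log2 difference between mutant and control library within each litter (y axis) for Ace, Enpep and Mme and for the summed CPM of 4 marker lists. Litter 3 gives the lowest point for the 3 peptidase genes and for the proximal tubule (0.05), podocyte (-0.04) and stromal (0.06) sums, and the endothelial points lie together at 0.13 to 0.16.

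Of the genes most like each peptidase gene in pattern over the 6 libraries, by Pearson's r of log2(CPM + 0.5), Ace was closest to Abhd12 (0.995), Slco2a1 (0.994) and Hnf4a (0.994). Enpep was closest to Slc47a1 (0.990), March8 (0.987) and Nlgn1 (0.985), and Mme to the joined row of Stam2 and Gm13548 (0.992), Slc4a4 (0.990) and Mtm1 (0.985). Out of 13766 tested rows, 76, 49 and 67 reached 0.95 with Ace, Enpep and Mme, so the rows named are the top of longer lists. These r values rest on 6 libraries and describe those libraries, which share litters. Among the 7 genes, Ren1 followed Atp6ap2 (0.98), Agtr1a (0.90) and Agtr2 (0.86), and Enpep and Mme followed each other (0.87). Atp6ap2 also went with Agtr2 (0.86) and Agtr1a (0.82), and Agtr1a with Agtr2 at 0.69. Ren1, Atp6ap2, Agtr1a and Agtr2 were each highest in litter 1, in control and in mutant libraries.

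Of 23 further genes of the angiotensin and kinin peptide pathway 16 were measured, 1 rose and 0 fell, where 7.93% of all tested rows rose. The differences were positive in 8 and negative in 8, with a median of -0.01. The gene that rose was Ece1, endothelin-converting enzyme, a zinc peptidase that also cuts kinins. It stood at 74.4, 77.5 and 84.1 CPM in control and 89.9, 104 and 106 CPM in mutant libraries, without overlap (log2 difference 0.34, SE 0.05, adjusted p = 0.00697 by limma, 0.188 unpaired). Anpep, a brush border aminopeptidase, had a difference of 0.19 (adjusted p = 0.160). Ctsa, the most abundant gene of the list, had 0.01. Larger differences that were not called were those of the mast cell carboxypeptidase gene Cpa3 (-0.46, adjusted p = 0.129), Lnpep (0.36, 0.134), Agtrap (-0.22, 0.154) and Prcp (0.20, 0.0747). The groups of Cpa3, Agtrap and Prcp did not overlap.

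Of the genes that act downstream through aldosterone and sodium transport, 12 were measured, 2 rose and 0 fell, with a median of 0.04. The 2 were the kinase gene Wnk1 and the ubiquitin ligase gene Nedd4l, with log2 differences of 0.28 and 0.20. Their transcripts are long, and with the length and GC correction none of the 12 was called. The sodium channel subunit genes Scnn1a, Scnn1b and Scnn1g had differences of 0.17, 0.10 and 0.19, none of them called.

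Genes known to control renin were measured as well. Of 27 measured 8 rose and 0 fell, with a median of 0.16, where 7.93% of all tested rows were called higher. Ptgs2, the inducible cyclooxygenase whose prostaglandins stimulate renin release, rose most. It stood at 4.09, 2.29 and 3.11 CPM in control and 8.57, 6.34 and 6.98 CPM in mutant libraries. Each mutant library lay above each control library (log2 difference 1.11, SE 0.12, adjusted p = 0.00215 by limma, and 0.0381 unpaired). Nos1, the nitric oxide synthase of the macula densa, stood at 3.52, 3.34 and 4.89 CPM in control and 5.65, 6.28 and 7.67 CPM in mutant libraries (log2 difference 0.68, SE 0.11, adjusted p = 0.0106 by limma, 0.137 unpaired). Both are scarce, with as few as 101 and 147 reads in a library.

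Others that rose were Crebbp and Ep300, co-activators of the cAMP response, the transcription factor genes Foxd1 and Rxra, and Dicer1, which processes microRNAs. Their log2 differences ran from 0.20 for Rxra to 0.36 for Crebbp. With the length and GC correction Ptgs2 (1.10) and Nos1 (0.48) were the 2 still called. The row of Ep300 is joined with Gm23880. Gja5, the gap junction gene of renin cells, and Creb1 had differences of -0.01 and 0.01, and Nr2f2, the most abundant of the list, 0.07.

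Genes of juxtaglomerular and mural cells, where renin is made, gave 1 rise and 1 fall among 14 measured, with a median of -0.002. Akr1b7, a marker of renin cells, stood at 16.5, 13.1 and 16.3 CPM in control and 11.8, 11.9 and 14.2 CPM in mutant libraries, lower in each litter, with a log2 difference of -0.26 and an adjusted p of 0.105 by limma. Notch3 rose (0.21) and the pericyte gene Rgs5 fell (-0.40, adjusted p = 0.0496). With the length and GC correction none of the 14 was called, and unpaired none. Acta2, the smooth muscle actin gene and most abundant of the list, had 0.02. Their summed level overlapped between groups, from 942 to 952 CPM in control and from 916 to 1014 CPM in mutant libraries.

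Atp6ap2 was read beside the other proteins of the proton pump. Of 20 V-ATPase genes 0 rose and 2 fell, with a median of -0.10. Both that fell, Atp6v1c2 and Atp6v1b1, encode subunits of restricted expression, the latter typical of acid-secreting intercalated cells. Atp6v1c2 went from 8.61, 7.5 and 6.81 CPM to 4.80, 4.88 and 4.59 CPM (log2 difference -0.63, adjusted p = 0.0120 by limma), and Atp6v1b1 from 36.8, 34.4 and 34.0 CPM to 32.8, 24.6 and 18.5 CPM (-0.50, 0.0321). Neither was called unpaired (0.0760 and 0.296). Both stayed called with the length and GC correction. Atp6ap1, the other accessory protein and the most abundant of these genes, had 0.10.

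**Figure D5:**
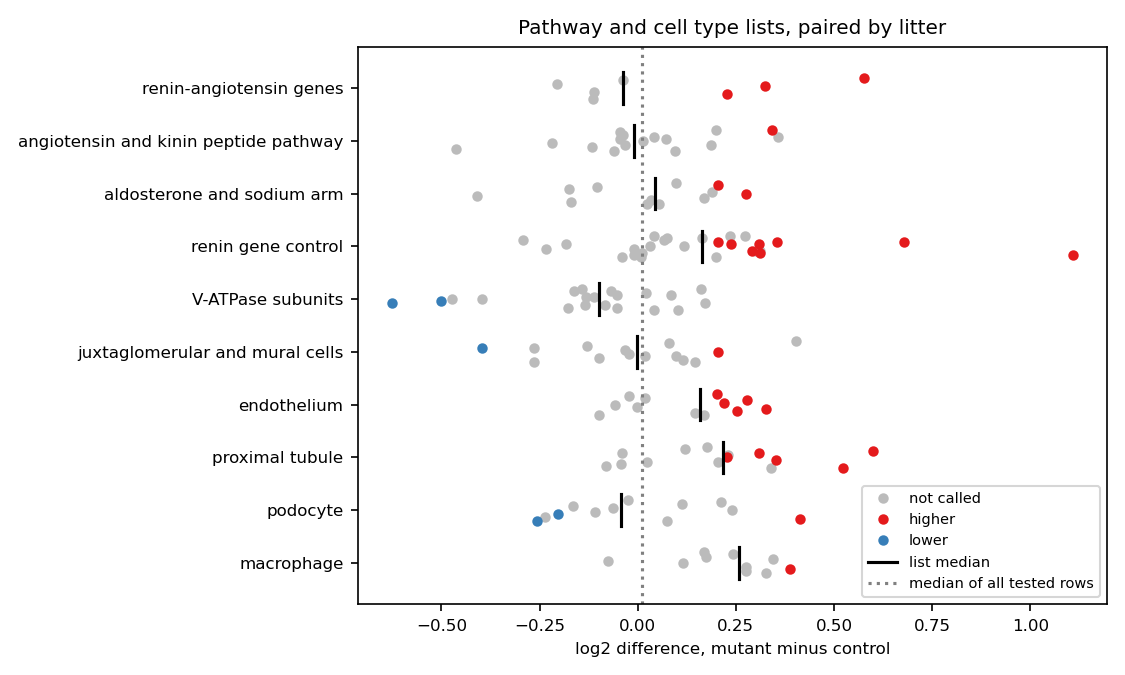
Log2 difference of each measured gene (x axis, mutant minus control, paired by litter) in the renin-angiotensin set and 9 other lists, with red and blue for genes called higher and lower, black bars for list medians and a dotted line for the median of all tested rows (0.01). Ptgs2 is the point at 1.11 in the renin control list.

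Further marker lists place these kidneys. Of 12 nephron progenitor genes 0 rose and 7 fell (Cited1, Meox2, Traf1, Meox1, Capn6, Six2 and Eya1), with a median of -0.37. This list was chosen with earlier results of these data known, so its count describes the list and is no independent support. Of 12 stromal genes 4 rose (Fat4, Ntn1, Pdgfra and Foxd1) and 0 fell, with a median of 0.31. Of 10 macrophage genes 1 rose, Mrc1, and the median was 0.26. Of 8 hepatocyte genes 1 fell, Afp (log2 difference -0.43), and of 3 adrenal genes with a row 0 were called. Of 4 tested sex-linked genes 0 were called. Unpaired, 5 progenitor genes were called lower and 3 stromal genes higher, with 1 podocyte gene and Ptgs2 higher and none in the other lists described here.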

How the data were processed

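Strand and counting program are not given in the sources used here. Per the labels' protocols, extraction used Trizol and library preparation the Illumina TruSeq RNA kit. The submitters' processing notes name TopHat2 2.0.9, Picard, SAMtools and build NCBIM37. The authors deposited CPM values, which scale a library's reads to a common total. All were whole multiples of 1 read within 0.001 reads. Between 0.105% and 0.117% of a library's reads fell outside the table's rows. Of 13965 rows, 526 join more than 1 identifier. Symbols came from GENCODE M21 for 13695 rows.

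Rows that reached 1 CPM in 3 or more libraries were compared by limma 3.58.1 (R 4.3.3) with its trended prior, on log2(CPM + 0.5). Genotype was tested with litter as a block, which pairs the libraries, because the labels give each litter 1 library of each genotype. Deviations from the group means correlated at 0.619, 0.446 and 0.312 within litters 1, 2 and 3 across genes. Whether replicates are separate animals is not stated beyond the litter, so p-values describe these libraries only. Paired p-values weigh the genotype difference against the spread of differences within litters, moderated by the trended prior. Unpaired p-values weigh it against the spread between libraries of a genotype. Libraries of 1 genotype differed by more than sampling noise (chi-square per degree of freedom 21.6 to 51.1). Fold changes are on the log2(CPM + 0.5) scale. Genes named from other lists are those called in the paired fit and the most abundant of each list, apart from any not reported here; a few further genes (Anpep, Cpa3, Lnpep, Agtrap, Prcp, the Scnn1 genes, Gja5, Creb1 and Akr1b7) were named after their values were seen. The 3 rows most correlated with each called gene were named as well. The genes, lists and tests were chosen with earlier results of these data known. The length and GC correction removed a loess trend of each library on transcript length and then on GC content, over 13517 rows. Figures were drawn with Matplotlib 3.10.9.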

Additional observations from a re-analysis of the deposited data

How the results depend on the processing

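Unpaired, without the replicate block, 0 of the 7 renin-angiotensin genes and 77 rows (50 higher, 27 lower) were called, in place of 3 genes and 1574 rows (1091 higher, 483 lower) when paired by litter. With the length and GC correction and the block, 2 genes and 845 rows (485 higher, 360 lower) were called. Leaving out 1 litter with the block gave 0 to 3 genes and 381 to 2348 rows. The lowest counts came without litter 1, where 4 of the 7 genes and 2609 rows had an unadjusted p below 0.05 by limma. Leaving out 1 library without the block gave 0 or 1 genes, the 1 being Ace without control library 3, and 100, 27 and 44 rows without control library 1, 2 and 3, and 73, 34 and 22 without mutant library 1, 2 and 3. These fits hold fewer samples, and the cause beyond that was not tested. Other pseudocounts (0.1 and 1), no filter and a filter of 5 CPM left 3 genes called, and both scalings 2, without Mme. The sign of Atp6ap2 turned in 5 settings, to 0.031 with the length and GC correction, 0.0087 without litter 3, and, with no block, 0.0314, 0.0026 and 0.0175 without control library 1, mutant library 2 and mutant library 3. Agtr2 turned to 0.0055 with no block and without mutant library 2. The count models planned as alternatives were not run. Protein sequences were not used here. At 338 to 496 reads, Agtr1a has a larger counting error relative to its level than the other 6 genes.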
